A study of Homo sapiens with 8 samples.

Results

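The erasers and readers of N6-methyladenosine (m6A) were examined at the level of their own mRNAs in HCT116 cells, a human colorectal carcinoma line, with and without Fusobacterium nucleatum. The set held 10 genes of the 19475 entries in the expression table, chosen by symbol: the erasers FTO and ALKBH5, the YTH readers YTHDC1, YTHDC2, YTHDF1, YTHDF2 and YTHDF3, and the readers IGF2BP1, IGF2BP2 and IGF2BP3. Peaks that carried one of these names formed 16 of the 22001 regions found in the series. In the m6A sequencing, HCT116 cells received PBS (Control) or F. nucleatum (FUSO) for 2 h, at 100 bacteria per cell according to the methods of the study, and poly(A) RNA fragments were sequenced as input or after pull-down with an m6A antibody (IP). There were 2 input and 2 IP libraries per treatment, which the study describes as biological replicates. Both treatments used a single cell line and differed in the bacterium alone as far as the labels state, with no other species of bacterium among the 8 samples.

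m6A is placed on mRNA by a nuclear methyltransferase complex, most often at GGAC and related motifs. FTO and ALKBH5 are dioxygenases that remove the methyl group. The YTH proteins hold the modified base in an aromatic pocket: YTHDC1 acts in the nucleus on splicing and export, YTHDC2 is an RNA helicase best known from germ cells, and YTHDF1, YTHDF2 and YTHDF3 act in the cytoplasm, where YTHDF2 brings the CCR4-NOT deadenylase to its targets. The IGF2BP proteins bind RNA through KH domains and are known for keeping m6A-bearing mRNAs stable. The mRNAs of several of these genes carry m6A themselves.

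Each input library detected 14566 to 14816 genes above 0 FPKM (fragments scaled by transcript length and by the total mapped), and each peak list held 17039 to 18365 peaks. Absolute depth was unknown, since the expression table held no counts. Of the 7 colorectal epithelial markers, 5 were at 1 FPKM or more, while VIL1 and CEACAM5 were at or near 0. The 4 blood markers summed to 0.0904 to 0.289 FPKM and the 2 endothelial markers to 0.0651 to 0.134 FPKM. Of the 3 fibroblast markers, COL1A1 was at 3.78 to 5.72 FPKM and COL1A2 at 0 in all 4 libraries.

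The following stretches of sequence come from the regions formed by the peaks. In each, 25 bases of the GRCh37 (hg19) reference are written 5′ to 3′ on the transcript strand, and capitals mark the GGAC closest to the middle of the region. They were picked to cover both erasers, the long regions of YTHDF2 and YTHDF1, the IGF2BP2 region with the lowest p-values and a pair of regions listed after F. nucleatum alone. The marked A lay within a peak of all 4 lists for YTHDF2, YTHDF1, IGF2BP2 and the ALKBH5 stretch near the stop codon. It lay within a peak of both Control lists and of neither FUSO list for the ALKBH5 stretch near the start, and within the FUSO 1 peak alone for FTO and IGF2BP3, outside the FUSO 2 peak of the same region.
YTHDF2, coding sequence, chr1:29069886-29069910 (plus strand): taatggagtaGGACagtctcaggct
YTHDF1, coding sequence, chr20:61834471-61834495 (minus strand): agcataacatGGACattggcacctg
ALKBH5, coding sequence near the start, chr17:18087607-18087631 (plus strand): tgacgtcccgGGACaactataaggc
ALKBH5, coding sequence near the stop codon, chr17:18111643-18111667 (plus strand): agtcctcagaGGACtgctctgaggc
IGF2BP2, 3′UTR, chr3:185361785-185361809 (minus strand): gccttcttttGGACaaaccttgaaa
FTO, coding sequence, chr16:53860201-53860225 (plus strand): atcctacaacGGACaagatgaagtg
IGF2BP3, 3′UTR, chr7:23350849-23350873 (minus strand): cagaccaatgGGACagtcatagatg
GGAC was searched on the transcript strand only and was present in 15 of the 16 regions, against 72.8% of all 22001 regions. The median length was 464.5 nt for the 16 regions and 325 nt for all regions, and a longer region is more likely to hold the motif. Among regions within 20% of the same length, the share with GGAC ran from 46.7% for the FTO region of 121 nt to 99.2% for the YTHDF2 region. A match describes the sequence and does not place a methylated base.

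The mRNA levels of the 10 genes were compared first. FPKM is scaled by transcript length, so it can be set side by side between genes. YTHDF2 had the highest mRNA level of the set, at 51.9 ± 2.19 FPKM (SD over the 4 input libraries, n = 4), and 87.7% of the 11088 genes tested were at or below it. It was 2.22 times as high as the next gene, IGF2BP2, and their ranges did not overlap. The next 4 genes were IGF2BP2 at 23.3 ± 9.25 FPKM, YTHDF1 at 22.6 ± 1.87 FPKM, IGF2BP3 at 20.5 ± 1.88 FPKM and ALKBH5 at 17.3 ± 1.98 FPKM (SD, n = 4 each). Each of these overlapped its neighbour in range, so their order was not separated by the spread between libraries. YTHDF3 followed at 14.0 ± 0.486 FPKM, below the lowest ALKBH5 value of 14.7 FPKM. YTHDC2 at 7.26 ± 0.445 FPKM and YTHDC1 at 6.64 ± 0.662 FPKM overlapped each other and lay below the YTHDF genes. FTO was the lowest of the genes above 1 FPKM, at 4.37 ± 0.259 FPKM, a level that 28.1% of the tested genes did not exceed. The eraser ALKBH5 was thus above the eraser FTO in each of the 4 libraries. IGF2BP1, an oncofetal protein, was near 0 at 0.0536 and 0.0608 FPKM in Control and 0.0413 and 0.0643 FPKM in FUSO, and was too low to be tested.

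**Figure D1:**
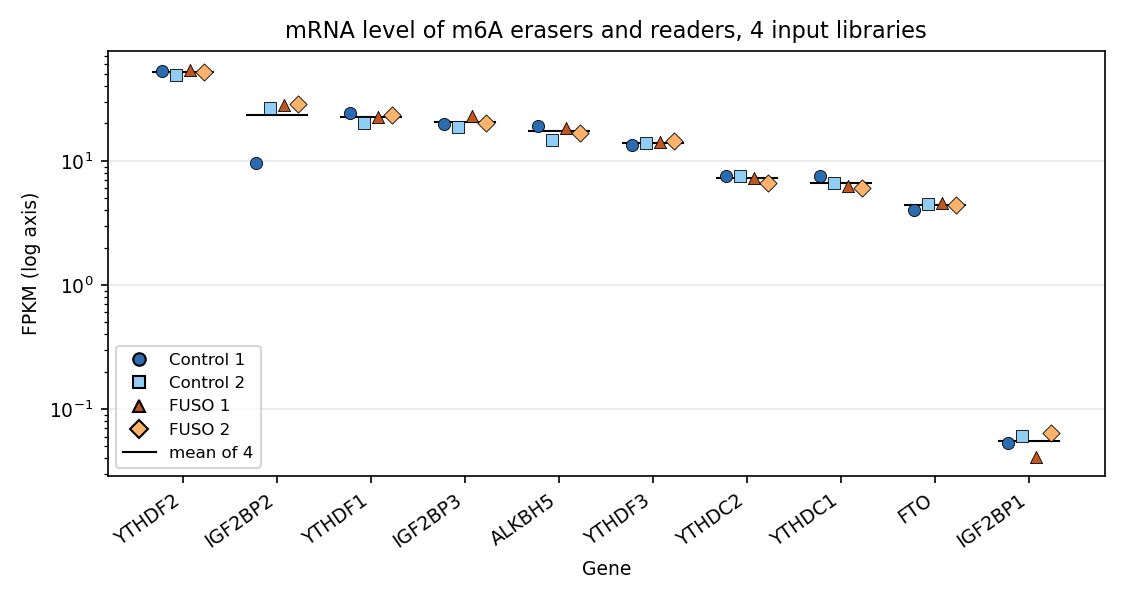
Level of each gene in FPKM (log axis) in the 4 input libraries, with points for libraries and a bar for the mean of 4. YTHDF2 is highest at 51.9 FPKM, IGF2BP1 lies near 0, and the Control 1 value of IGF2BP2 (9.55 FPKM) sits apart from its other 3.

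Control and FUSO were then compared to ask whether the bacterium was accompanied by a change in eraser or reader mRNA. With limma on log2(FPKM + 1), 0 of the 9 genes tested were called (Benjamini-Hochberg adjusted p under 0.05), and 0 of 9 had an unadjusted p under 0.05. Over all 11088 genes, 0.667% were called higher in FUSO, 0.135% were called lower, and 13.5% had an unadjusted p under 0.05. The median log2 fold change of the 9 genes was 0.06, beside 0.01 over all genes tested. Both FUSO values lay above both Control values in 3 of the 9 genes and below them in 2, against 26.1% and 21.1% of all genes. In this bulk RNA, fewer cells with a transcript and less of it per cell cannot be told apart.

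Of the erasers, FTO measured 4.01 and 4.48 FPKM under PBS, against 4.61 and 4.38 FPKM with F. nucleatum. The groups overlapped, and the log2 fold change was 0.07 (95% interval -0.16 to 0.29, limma adjusted p = 0.751). ALKBH5 measured 19.2 and 14.7 FPKM under PBS, against 18.4 and 16.8 FPKM with F. nucleatum. Both FUSO values fell between the Control values, and the log2 fold change was 0.05 (95% interval -0.27 to 0.38, limma adjusted p = 0.878). On the linear scale of FPKM + 1, these intervals run from 0.898 to 1.23 times for FTO and from 0.828 to 1.30 times for ALKBH5. Changes within those bounds could not be told from 0 with 2 libraries per treatment. RPGRIP1L lies antisense to FTO and was at 1.43 to 1.90 FPKM, and whether the counting used strand is not given in the sources used here.

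Of the YTHDC readers, both genes had lower values in FUSO, and neither passed the test. YTHDC1 measured 7.54 and 6.68 FPKM under PBS, against 6.31 and 6.01 FPKM with F. nucleatum. Its groups did not overlap, its log2 fold change was -0.18 (95% interval -0.40 to 0.04), and its adjusted p was 0.439 with the lowest unadjusted limma p of the set, 0.0957. YTHDC2, which is found in both nucleus and cytoplasm, measured 7.53 and 7.57 FPKM under PBS, against 7.33 and 6.61 FPKM with F. nucleatum, with a log2 fold change of -0.10 (95% interval -0.31 to 0.10, limma adjusted p = 0.606). The 3 genes outside the set whose pattern over the 4 input libraries was nearest to that of YTHDC1 were TMEM69, ZNF76 and EMC4. Their Euclidean distances on centred log2(FPKM + 1) were 0.00843, 0.0108 and 0.0156. TMEM69 measured 24.02 and 21.4 FPKM under PBS, against 20.3 and 19.5 FPKM with F. nucleatum. Like YTHDC1 it was highest in Control 1 and lowest in FUSO 2, an order that the choice by distance favours by design.

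The cytoplasmic YTHDF readers varied little. YTHDF1 measured 24.3 and 20.01 FPKM under PBS, against 22.7 and 23.6 FPKM with F. nucleatum, so that both FUSO values lay between the Control values. YTHDF2 measured 52.8 and 48.8 FPKM under PBS, against 53.9 and 52.0 FPKM with F. nucleatum. YTHDF3 measured 13.3 and 14.1 FPKM under PBS, against 14.3 and 14.4 FPKM with F. nucleatum. The YTHDF3 groups did not overlap, but by a margin smaller than the gap between its Control values. The log2 fold changes were 0.07 for YTHDF1, 0.06 for YTHDF2 and 0.06 for YTHDF3, with limma adjusted p-values of 0.791, 0.704 and 0.702. The widest of the 3 intervals, that of YTHDF1, ran from -0.19 to 0.32 on the log2 scale. No stretch of 30 bases in the canonical mRNA of one of the 10 genes occurred in that of another, so reads of that length that match without error could not be split between these paralogs.

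IGF2BP2 had the largest fold change and the widest interval of the set. It measured 9.55 and 26.4 FPKM under PBS, against 28.4 and 28.9 FPKM with F. nucleatum. The Control 1 value stood apart, since the lowest of the other 3 was 2.77 times as high. The log2 fold change was 0.80 (95% interval -0.24 to 1.85, limma adjusted p = 0.456). It was 0.11 without Control 1 (adjusted p = 0.492) and 1.49 without Control 2 (adjusted p = 0.00109), so the size and the call both turned on 1 library. In the fit without Control 2, the lone Control library is assumed to vary like the others. Only 7 of the 11088 genes, IGF2BP2 included, had a Control 1 value this far below all 3 other libraries on the log2 scale (0.0631%). A difference between the 2 Control libraries at least as large, in either direction, was found in 0.370% of genes. IGF2BP2 peaks covered 1440 nt in the Control 1 list, the least of the 4 lists, against 1589 nt in Control 2 and 1709 and 1589 nt in FUSO. The Control 1 list had 3 IGF2BP2 peaks, with p-values of 1.6e-30, 7.9e-70 and 1e-115, where the others had 2. What set Control 1 apart at this gene was not tested. IGF2BP3 measured 19.7 and 18.9 FPKM under PBS, against 23.2 and 20.02 FPKM with F. nucleatum. Its groups did not overlap, and its log2 fold change was 0.15 (95% interval -0.07 to 0.37, limma adjusted p = 0.490). MALSU1, at 62.8 to 67.3 FPKM, lies antisense to IGF2BP3.

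**Figure D2:**
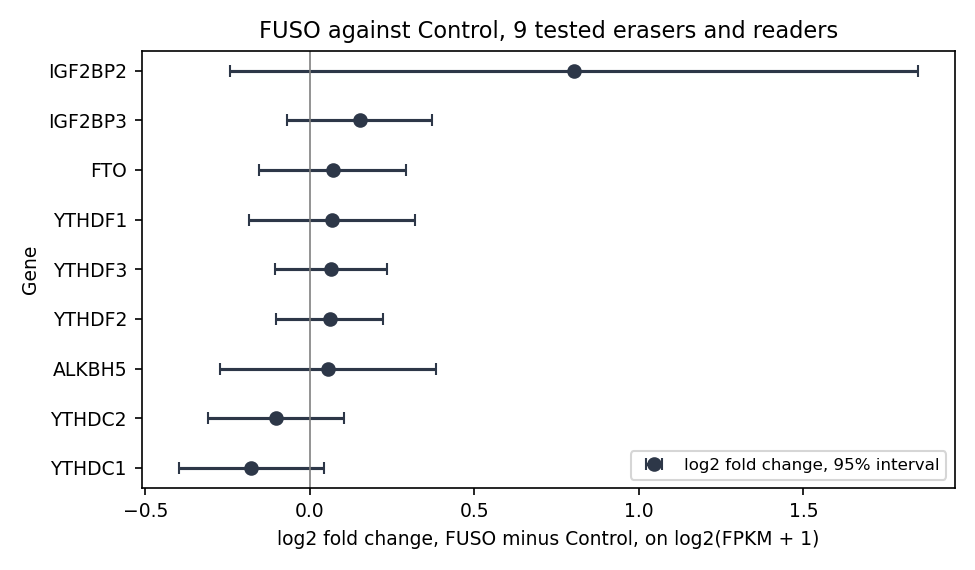
Log2 fold change of FUSO minus Control on log2(FPKM + 1) for the 9 genes tested, with points for the limma estimate and bars for its 95% interval. Every interval includes 0, and that of IGF2BP2 is the widest, from -0.24 to 1.85.

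The other genes of the m6A pathway were counted in 6 lists that hold 37 genes, of which 36 were tested. None was called by limma at an adjusted p under 0.05, against 0.667% called higher and 0.135% called lower over all genes tested. An unadjusted limma p under 0.05 was found for 2 of 36, against 13.5% of all genes tested. The median log2 fold change was -0.03. All 9 writers were tested, and WTAP, the adaptor of the methyltransferase, had the lowest p of the 36 genes. WTAP measured 38.2 and 37.6 FPKM under PBS, against 28.9 and 33.9 FPKM with F. nucleatum, with a log2 fold change of -0.27 (95% interval -0.49 to -0.05, limma adjusted p = 0.316). CBLL1, another part of that complex, had a log2 fold change of 0.12 (limma adjusted p = 0.511). Among the 8 other m6A-linked readers, the lowest p-values belonged to RBMX, whose log2 fold change was -0.11, and to the translation factor EIF3A, whose log2 fold change was -0.13 (limma adjusted p = 0.421 and 0.477).

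Among the 12 CCR4-NOT and YTHDF decay partners, the lowest p-values belonged to RIDA and CNOT9 (limma adjusted p = 0.530 and 0.634). RIDA, which links YTHDF2 to RNA cleavage, had a log2 fold change of 0.13. CNOT9, a CCR4-NOT subunit, was at 13.4 FPKM in Control 1 and at 23.8 to 27.3 FPKM in the other 3 libraries, so that like IGF2BP2 it was lowest in that library. The 3 IGF2BP cofactors were led by MATR3, with a log2 fold change of 0.09, and the poly(A)-binding protein PABPC1, with a log2 fold change of -0.07. Of the 3 YTHDC1 partners, the splicing factors SRSF3 and SRSF10 had log2 fold changes of -0.15 and 0.17 (limma adjusted p = 0.330 and 0.471). Of the 2 YTHDC2 partners, the exonuclease XRN1 had a log2 fold change of -0.03, while MEIOC, a germ-cell gene, was at 0.258 to 0.324 FPKM and was too low to be tested.

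The peaks on these mRNAs were examined next. Peaks of the 4 lists were merged into a region where they shared at least 1 base of their exon blocks on the same strand, and where a list had several peaks in a region, the lowest p-value is given. Of the 16 regions, 12 had a peak in all 4 lists, as did 51.5% of all regions. None of the 16 was lost, meaning present in both Control lists and in neither FUSO list, and 2 were gained, the reverse. Over all regions, 2.64% were lost and 2.38% were gained. The other 2 regions were one of FTO, listed in FUSO 2 only, and one of IGF2BP3, listed in Control 2 and FUSO 1. The lists held 13 and 14 peaks of these genes in Control and 15 and 15 in FUSO, a difference of 1.5 in the means (two-sided exact permutation p = 0.33, the smallest that 2 lists against 2 allow). The peaks covered 9655 and 10766 nt in Control and 10378 and 10824 nt in FUSO, which overlapped (exact permutation p = 0.667).

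Regions were found on 8 of the 10 mRNAs, and on 7 of them at least 1 region was in all 4 lists. Of the genes at 1 FPKM or more, 83.9% had a peak in at least 1 list. YTHDC1 had none in any list. Its mRNA is 6233 nt long and holds 15 GGAC. The YTHDC1 coding sequence held 0.321 GGAC per 100 nt, and 72.3% of genes at 1 FPKM or more were at least as dense. Of the 4244 genes within a factor of 2 of the YTHDC1 FPKM, 12.3% also had none. IGF2BP1 had none either, and 96.2% of the 982 genes near its FPKM had none. The lists do not tell an mRNA without m6A from one below detection, and the depth of the IP libraries was unknown.

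**Figure D3:**
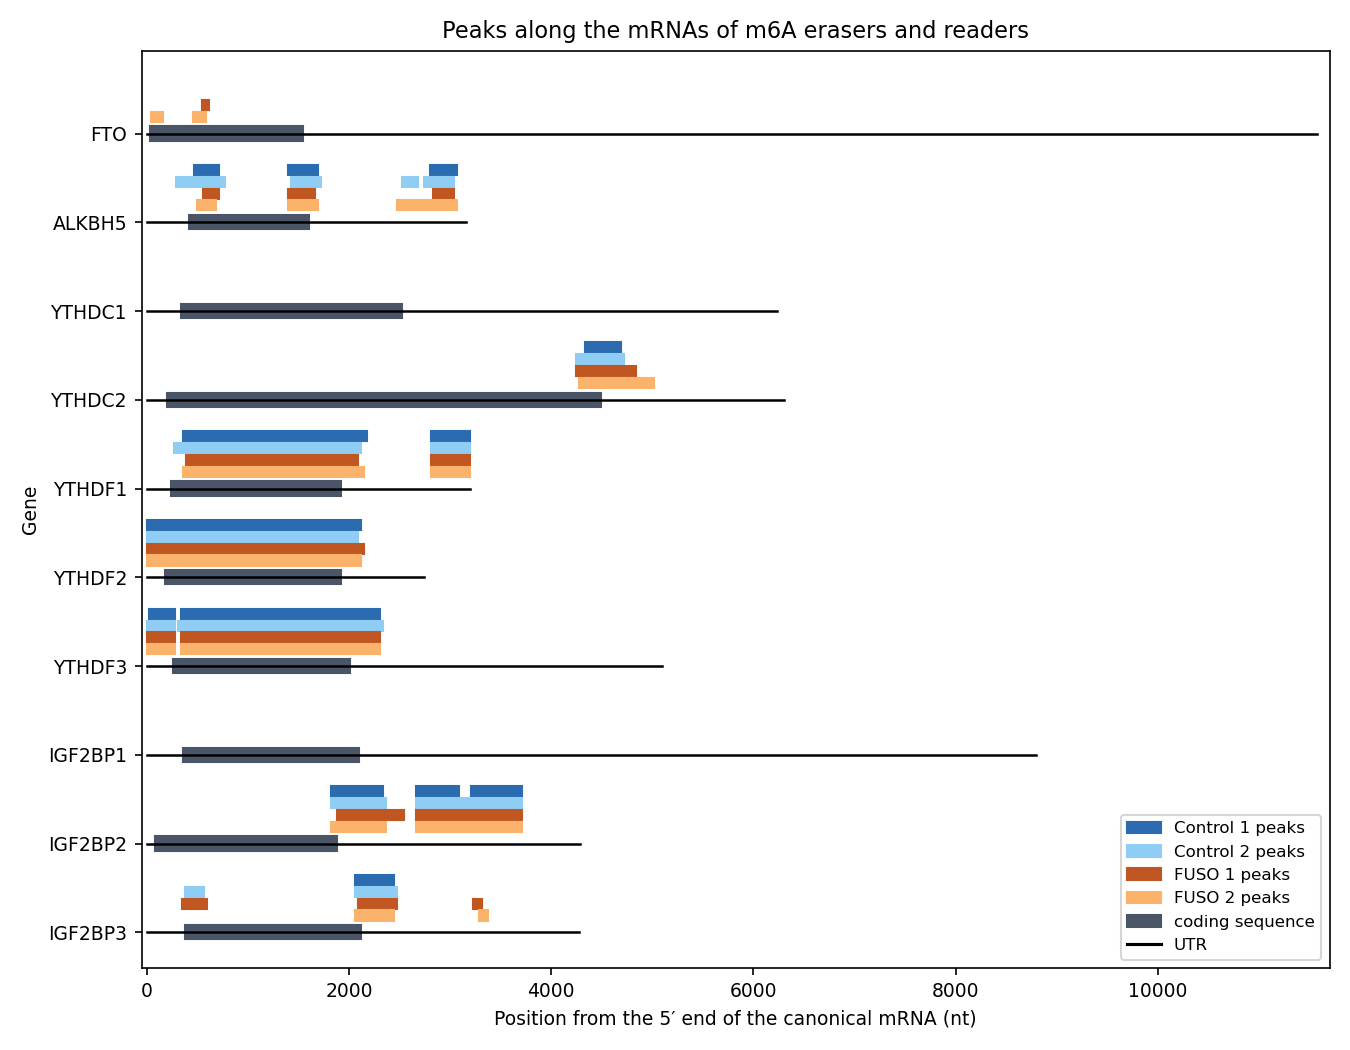
Peaks of the 4 lists along the canonical mRNA of each gene, in nt from its 5′ end, with the coding sequence as a thick bar and UTRs as a line. Peaks run over nearly the whole coding sequence of YTHDF1, YTHDF2 and YTHDF3, lie at the stop codon and in the 3′UTR of IGF2BP2, and are missing on YTHDC1 and IGF2BP1.

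The 3 YTHDF mRNAs shared a pattern that none of the other 7 showed: peaks over almost all of the coding sequence in every list. Peaks covered 100% of the YTHDF2 coding sequence in all 4 lists. On YTHDF1 the coverage was 92.6% and 98.0% in Control and 90.9% and 92.6% in FUSO. On YTHDF3 it was 96.9% and 98.6% in Control and 96.9% in both FUSO lists. The median over the 10676 genes at 1 FPKM or more was 10.3%, as a mean of 4 lists. The mean coverage of YTHDF1, YTHDF2 and YTHDF3 was reached by 2.81%, 1.49% and 1.95% of those genes. Of the same genes, 26.5% had no coding coverage in any list, and they were not matched to the YTHDF genes by FPKM. Treatment groups overlapped or touched on YTHDF1 and YTHDF3 and were the same on YTHDF2.

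The YTHDF regions were among the longest of the series. The YTHDF2 region, chr1:29063401-29095692 on the plus strand, joined 5 exon blocks of 2200 nt and ran from the 5′UTR to 228 nt of the 3′UTR, and 0.809% of all regions were as long. Its p-value was listed as 0 in all 4 lists, as for 105 of the 22001 regions (0.477%). The YTHDF1 region, chr20:61827796-61846946 on the minus strand, was 1910 nt long with peak p-values of 2.5e-90 and 1e-115 (Control), 4e-96 and 7.9e-84 (FUSO). The YTHDF3 region, chr8:64086240-64122592 on the plus strand, was 2037 nt long with peak p-values of 3.2e-79 and 1e-111 (Control), 1e-99 and 7.9e-84 (FUSO). On YTHDF3 both FUSO values lay between those of Control, while on YTHDF1 one did and the other was the weakest of the 4. YTHDF1 had a further region of 389 nt at the end of its 3′UTR, and YTHDF3 one of 450 nt at its 5′ end, each in all 4 lists.

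The 3 YTHDF genes also shared a long coding exon. It spans 1521 nt in YTHDF1, 1584 nt in YTHDF2 and 1574 nt in YTHDF3, which is 90.7%, 91.2% and 89.7% of the coding sequence. In the other tested genes the longest coding exon was 273 nt in IGF2BP2, 282 nt in IGF2BP3, 293 nt in YTHDC2, 424 nt in YTHDC1, 628 nt in FTO and 770 nt in ALKBH5. Over the 1318 genes with a coding exon of 1000 nt or more, the median coverage was 39.5%, and 6.90% had at least 90% of the coding sequence in peaks, against 3.48% of all 10676 genes. The density of GGAC was nearer to that of other genes than the coverage was. The coding sequences held 0.833, 0.575 and 0.569 GGAC per 100 nt in YTHDF1, YTHDF2 and YTHDF3, and 12.3%, 35.8% and 36.4% of genes were at least as dense. Whether exon length or motif density bears on the coverage was not tested.

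The erasers differed from each other in their peaks. ALKBH5 had 3 regions, each in all 4 lists: one of 479 nt over the start of the coding sequence, one of 330 nt at the stop codon and one of 597 nt in the 3′UTR. The first, chr17:18087434-18087912, held 7 GGAC, or 1.46 per 100 nt, a density that 2.17% of 3818 regions of similar length reached, and its GC content was 70.8%. Its p-values were 3.5e-08 and 1e-10 in Control and 0.001 and 2.3e-05 in FUSO. It was the only one of the 12 regions in all lists with both Control p-values below both FUSO p-values, as in 18.9% of all such regions, and none of the 12 showed the reverse, against 15.7%. A p-value depends on depth as well as on enrichment, and the depth of the IP libraries was unknown. Peaks on the whole ALKBH5 mRNA covered 809 and 1230 nt in Control and 630 and 1077 nt in FUSO, with overlapping groups.

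FTO had no peak in either Control list and short ones in FUSO. A peak of 61 nt in FUSO 1 (peak p-value 0.00098) and one of 120 nt in FUSO 2 (peak p-value 0.0006) formed the region chr16:53860087-53860236, which is 150 nt of coding sequence with 2 GGAC. A second FTO region of 121 nt over 3 coding exon blocks was listed in FUSO 2 only (peak p-value 0.00031) and held no GGAC. These are weak peaks. Each has a p-value above 1e-05, and with peaks limited to that value FTO had no region in any list. Of the 3867 genes within a factor of 2 of the FPKM of FTO, 15.1% had no peak in any of the full lists. FTO did have peaks in the full lists, and no such share was computed at the stricter cutoff or for the Control lists alone. The canonical FTO mRNA had the longest 3′UTR of the set, 10026 nt, and no list had a peak there.

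**Figure D4:**
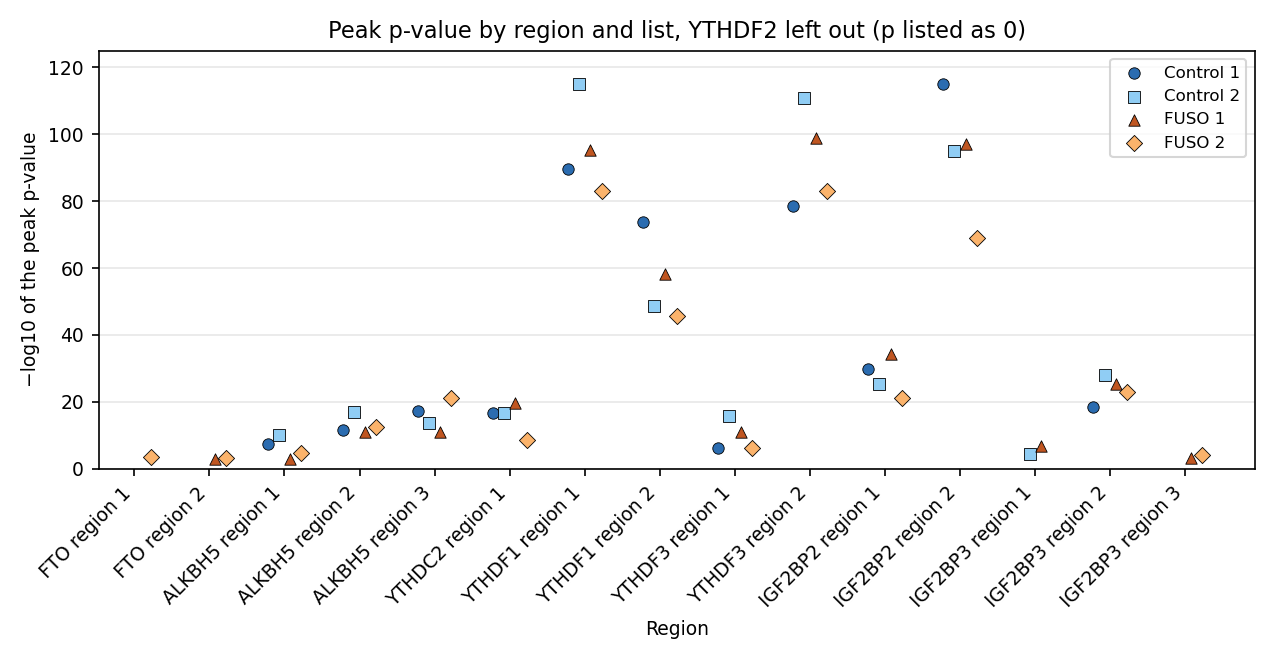
Peak p-value (as −log10, higher is stronger) of each region in each list, without YTHDF2, whose p-value is listed as 0 in every list. The long YTHDF1 and YTHDF3 regions and the second IGF2BP2 region are the strongest, and the FTO regions and IGF2BP3 region 3 are among the weakest.

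IGF2BP2 and IGF2BP3 had their strongest peaks at or past the stop codon. IGF2BP2 had a region of 720 nt that began in the last 57 nt of the coding sequence and a second of 1049 nt within the 3′UTR, chr3:185361488-185362536 on the minus strand. The p-values of the second were 1e-115 and 1e-95 in Control and 7.9e-98 and 1.3e-69 in FUSO. It held only 2 GGAC, or 0.191 per 100 nt, and 87.5% of the 1853 regions of similar length were at least as dense. Peaks covered 2.25% of the IGF2BP2 coding sequence on average. IGF2BP3 had a region of 420 nt across the stop codon in all 4 lists, with peak p-values of 2.5e-19 and 1.3e-28 (Control), 4e-26 and 1.3e-23 (FUSO). Its other 2 regions were a weak gained one of 151 nt in the 3′UTR (peak p-values 0.00079 in FUSO 1 and 0.00011 in FUSO 2) and one of 241 nt around the start codon, in Control 2 and FUSO 1. In the gained region, the peaks of FUSO 1 and FUSO 2 were each 91 nt long.

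YTHDC2 had a single region of 778 nt, chr5:112927706-112929698 on the plus strand, that took in the last 251 nt of the coding sequence and 527 nt of the 3′UTR. The p-values were 2e-17 in both Control lists and 2e-20 and 2.3e-09 in FUSO. Its peaks covered 359 and 479 nt in Control and 599 and 748 nt in FUSO. The groups did not overlap, and the difference of 254.5 nt had the smallest exact permutation p that the design allows, 0.33. Peaked length in FUSO was above both Control lists for YTHDC2 and FTO, as for 14.3% of the 11155 genes with a peak. It was below both for YTHDF1, at 2209 and 2239 nt in Control and 2090 and 2179 nt in FUSO, as for 17.8% of those genes. For the other 5 genes with peaks the groups overlapped or touched.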

How the data were processed

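Groups and replicate numbers came from the sample labels. The members and gene lists were chosen with earlier results of these data known. The deposited expression values were FPKM of the 4 input libraries, estimated by the authors using StringTie. Their processing notes also name Trim Galore 0.3.3 and HISAT2 2.1.0, and their methods hg19. FPKM adjust for transcript length and total fragments only, and no counts were used here. The only value in the 4 deposited peak lists was a score, taken to be the authors' uncorrected p-value. The methods name MACS2, while the layout with exon blocks is one that exomePeak writes, and the program behind them is not settled. Each list was read as 1 IP with the input of the same number. A listed p-value of 0 was kept as 0.

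Genes averaging 1 FPKM or more were tested with limma 3.58.1 in R 4.3.3 (eBayes with trend, two-sided) on log2(FPKM + 1), which understates the change of low genes, and p-values were adjusted over all 11088 genes. The study's count model could not be applied to FPKM. Regions were placed on the Ensembl canonical transcripts of GENCODE release 44 on GRCh37, counting from 1. Group means over lists were compared by exact permutation. All 10 genes were named, and of each pathway list the 2 tested genes with the lowest p. The patterns most like one member were found for the member with the lowest p. The region step was tested on a few hand-made peaks, and the limma step on simulated data. No per-sample column was left unused. The remainder used Python 3.11.15, pandas 2.3.3, NumPy 2.4.6 and pysam 0.24.0. Alternatives covered the pseudocount, the filter, quantile normalization, the variance trend, a replicate block, GC content, the peak p-value, the overlap rule, the assignment of peaks by exon, the class by region start, and each library in turn.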

Additional observations from a re-analysis of the deposited data

How the results depend on the processing

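No gene of the set was called in 10 of the 11 alternative fits of expression, and 1, IGF2BP2, was called without Control 2. The count of called erasers and readers when 1 library was left out was 0 to 1, that of called pathway partners 0 to 1 (CNOT9 without Control 2), and that of all called genes 16 to 284 against 89, while the median log2 fold change of the 9 genes ran from 0.0043 to 0.11. All called genes numbered 40 with no filter on low values and 35 with the replicate block and GC correction together. Of 99 refits of single genes, 3 turned direction: ALKBH5 was at -0.13 without Control 2 and at -0.01 without FUSO 1 (range to 0.24, without Control 1), and YTHDF1 at -0.066 without Control 2 (range to 0.20). The difference of Control 1 from Control 2 and that of FUSO 1 from FUSO 2 correlated at 0.0243 over the 11088 genes tested. A correlation over all genes cannot decide whether same-numbered libraries were handled together, and the labels do not say. The replicate block left the count at 0 and the log2 fold change of IGF2BP2 at 0.80 (limma adjusted p = 0.339).

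With peaks limited to p-values of at most 1e-05, 13 regions remained, 1 was lost (the first of ALKBH5), 0 were gained, and the difference in peaks turned to -1.0. The shares of all regions lost and gained given above belong to the full lists, so this loss has no such share beside it. With a reciprocal overlap of 50%, 21 regions were formed and 0 were gained. With 1 list left out, 2 to 3 regions were gained and the difference was 1.0 to 2.0. Assigning peaks by exon changed no count. Classed by the midpoint, 1 region belonged to the 5′UTR and 7 to the 3′UTR, and by the start 4 belonged to each. With 2 libraries per treatment and unknown depth, small changes could not be seen.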
